A study of Mus musculus with 8 samples.

Results

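Ribosomal protein genes were examined in cells captured by the myeloid marker CD11b from the ascites of mice bearing ID8 tumors. Treated mice had received an antibody that neutralizes the cytokine LIF. A gene entered when its single annotated symbol begins with Rpl or Rps and a digit (cytosolic) or with Mrpl or Mrps and a digit (mitochondrial), and symbols holding -ps, which mark pseudogenes, were left out. This gave 142 of 22180 genes on the arrays, 71 cytosolic and 71 mitochondrial. The cytosolic symbols comprise 54 ribosomal proteins proper, 9 paralogs (second copies such as Rps27l) and 8 that share the spelling but are not ribosomal proteins, among them the S6 kinases. Of the mitochondrial symbols, 44 are homologs of bacterial ribosomal proteins and 27 have no bacterial counterpart.

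ID8, an ovarian cancer line of the mouse, was given intraperitoneally to female C57BL/6 mice aged 8 weeks. By the sample records, treated mice received anti-LIF from day 12 for 25 days. The study's legend for ID8 tumor growth gives a later start. Profiled were 4 treated and 4 control mice, each on its own Mouse Gene 2.1 ST array (Affymetrix). The labels call the controls untreated, while the study's methods describe a control IgG. All mice of both groups carried ID8 tumors, and all cells were captured by beads against CD11b, which bind macrophages, monocytes and neutrophils alike.

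Each ribosome is a large and a small subunit of RNA and protein. Cytosolic ribosomes translate the messages of nuclear genes, and their RNA is made by RNA polymerase I and assembled with imported proteins in the nucleolus. Mitochondrial ribosomes translate the few messages of the mitochondrial genome, which encode parts of the respiratory chain, and all of their proteins come from nuclear genes. Messages of cytosolic ribosomal proteins usually begin with a cytosine followed by a run of pyrimidines, the TOP tract, through which mTORC1 and LARP1 control their translation. The growth-related factors MYC and mTORC1 are known regulators of ribosome production. In macrophages, protein synthesis is known to change with activation.

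The TOP tract was looked for at the annotated transcription start sites of the members, since it is the sequence that sets cytosolic ribosomal protein messages apart from mitochondrial ones. A tract was counted when the annotated first base was a C followed by at least 4 further pyrimidines. Among the 54 cytosolic ribosomal proteins, 42 had a start site in the RefSeq promoter table (build GRCm38.p6), and 9 of them (21.4%) held a tract exactly there. None of the 62 mitochondrial symbols with a start site did, and 2.74% of 16918 array genes did. With a tract beginning anywhere within 10 bases of the start, the shares were 57.1% for cytosolic proteins, 48.4% for mitochondrial ones and 35.0% for array genes. On this looser measure the classes lay closer together. In the following lines the capitals mark the unbroken pyrimidine run from the annotated start, and the lower case before it is the 10 bases upstream. The first 6 belong to genes that fell and the last 3 to genes that did not pass the test.
Rps27 (chr3:90213634-90213658, minus strand): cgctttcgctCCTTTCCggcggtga
Rpl14 (chr9:120571507-120571531, plus strand): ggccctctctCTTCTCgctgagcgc
Rps10 (chr17:27635230-27635254, minus strand): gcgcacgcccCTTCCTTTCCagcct
Rpl15 (chr14:18270972-18270996, minus strand): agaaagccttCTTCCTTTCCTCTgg
Rpl28 (chr7:4792955-4792979, plus strand): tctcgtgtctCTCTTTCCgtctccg
Rps6 (chr4:86857353-86857377, minus strand): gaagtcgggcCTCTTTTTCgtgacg
Rpl35 (chr2:39005117-39005141, minus strand): ccgccctttcCTCTTTCTCTCgaac
Rpl38 (chr11:114668570-114668594, plus strand): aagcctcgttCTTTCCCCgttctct
Rps18 (chr17:33955651-33955675, minus strand): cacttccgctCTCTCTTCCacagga

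For contrast, the starts of the 2 mitochondrial genes with the largest decreases hold a single pyrimidine at most, shown here in a capital at the annotated first base.
Mrps10 (chr17:47369187-47369211, plus strand): ccctccacggTagagagggccatgg
Mrpl14 (chr17:45686339-45686363, plus strand): ggagaaccccTggcgcgcaggcgca

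The values are log2 intensities after Robust Multi-array Average (RMA) normalization, averaged by symbol. Genes of both ribosomes were lower in anti-LIF-treated mice. Of the 71 cytosolic symbols, 28 (39.4%) fell, 3 (4.23%) rose and 40 did not pass the test, against a background of 11.0% of all genes lower and 5.79% higher (limma, adjusted p under 0.1 by Benjamini-Hochberg over 22180 genes). Of the 71 mitochondrial symbols, 19 (26.8%) fell, none rose and 52 did not pass. The median log2 change, anti-LIF minus control, was -0.32 for cytosolic symbols and -0.29 for mitochondrial ones, while that of all genes was 0.03. Changes ran from -1.74 to 0.71 among cytosolic symbols, of which 57 lay below 0, and from -1.19 to 0.28 among mitochondrial ones, of which 61 did. All 4 treated arrays lay below all 4 control arrays for 30 of the 71 cytosolic and 20 of the 71 mitochondrial symbols. Of all genes, called or not, 11.9% showed this separation in that direction. It held for 44 of the 47 members that fell, where the call itself favors it. Leaving out control replicate 3 gave the lowest mitochondrial share, 16.9%, and the cytosolic share stayed between 31.0% and 38.0% when each array was left out in turn. In bulk RNA, fewer cells of a type and less RNA per cell cannot be told apart.

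**Figure D1:**
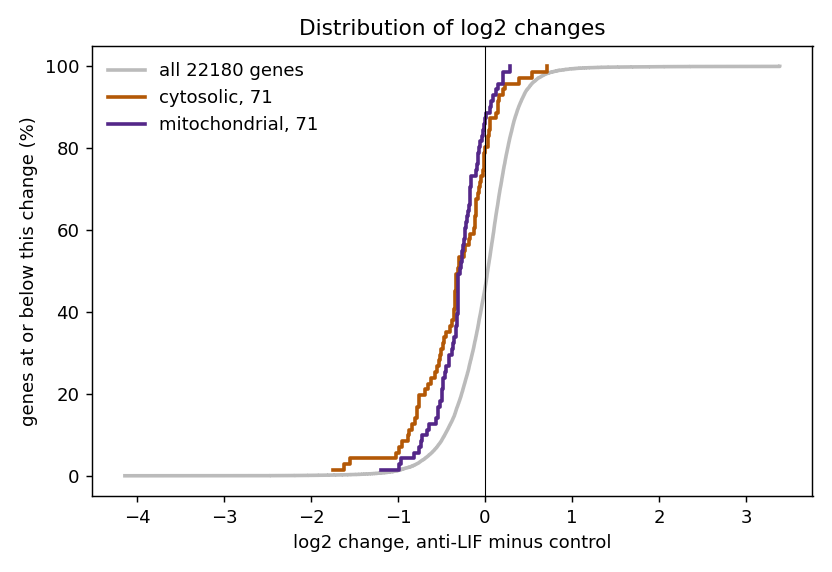
Cumulative share of genes (vertical axis, percent) at or below each log2 change, anti-LIF minus control (horizontal axis), for all 22180 genes and the 71 cytosolic and 71 mitochondrial symbols. Both ribosomal curves lie to the left of the grey curve over most of their range, with medians of -0.32 and -0.29 against 0.03, and the cytosolic curve starts further left, at -1.74.

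The decrease was similar in size in both classes when all 71 symbols of each were taken. The mean log2 level of the cytosolic symbols was 7.41, 7.45, 7.54 and 7.47 on control arrays 1 to 4 and 7.19, 7.13, 7.07 and 7.14 on treated arrays 5 to 8, a difference of -0.33. For the mitochondrial symbols it was 6.59, 6.57, 6.83 and 6.49 in controls and 6.35, 6.42, 6.26 and 6.26 in treated mice, a difference of -0.29. In each class every treated array lay below every control array, and control replicate 3 was the highest. That array held the highest of the 4 control values for 51 of the 71 mitochondrial symbols and for 38 of the 71 cytosolic ones. The cytosolic mean minus the mitochondrial mean was 0.85 ± 0.11 (SD, n = 4) in controls and 0.81 ± 0.07 (SD, n = 4) in treated mice. These ranges overlapped, from 0.71 to 0.99 and from 0.71 to 0.87. No difference in mean change was seen beyond the spread between mice, but 4 mice a group cannot show that there is none. The cytosolic ribosomal proteins proper alone had a mean change of -0.41, against -0.29 for the mitochondrial symbols. That contrast was not tested.

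**Figure D2:**
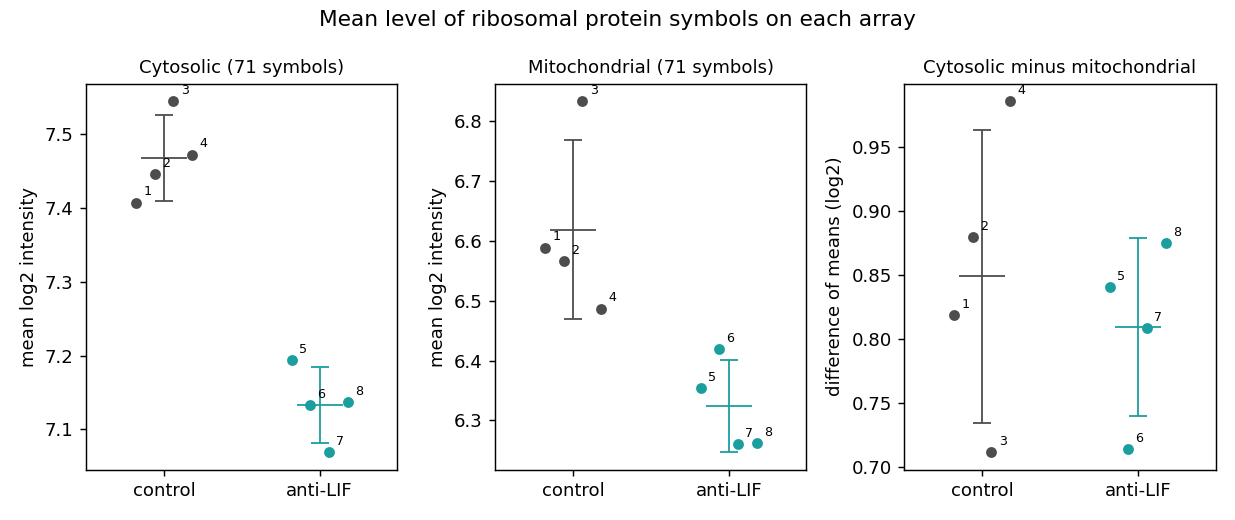
Mean log2 intensity of the 71 cytosolic and the 71 mitochondrial symbols and their difference on each array (points, numbered by mouse), with the group mean and SD (bars, n = 4); the 3 vertical axes have different ranges. All treated points lie below all control points in the first 2 panels, while the differences overlap in the last, at 0.71 to 0.99 and 0.71 to 0.87.

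Level and array spread moved with these changes. The treated arrays had a narrower spread of values over genes (SD 1.80 to 1.85) than the control arrays (1.91 to 2.01), and brighter genes were lower more often. Among genes that are not members, 1.92% fell at a mean log2 level under 5, 17.5% at 5 to 7, 31.4% at 7 to 9, 37.4% at 9 to 10 and 42.4% at 10 to 11, but 16.1% of the 31 genes at 11 or more. Of the cytosolic symbols, 30.0% of 20 fell at 5 to 7, 56.3% of 16 at 7 to 9 and 66.7% of 9 at 10 to 11, with a median change of -0.76 in the last bin against -0.27 for other genes there. At 11 or more, 3 of 7 fell (median -0.17 against 0.18). For mitochondrial symbols, 29.2% of 48 fell at 5 to 7, with a median of -0.31 against -0.10 for other genes. At 7 to 9 their share was 27.8% of 18, close to the 31.4% of other genes. With each array centred and scaled to a common spread, 26.8% of cytosolic and 21.1% of mitochondrial symbols fell, against 9.30% of all genes, and the cytosolic median was -0.15. With quantile normalization applied again the shares were 25.4%, 15.5% and 6.56%. The part of array spread in the decrease was not tested beyond these values.

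**Figure D3:**
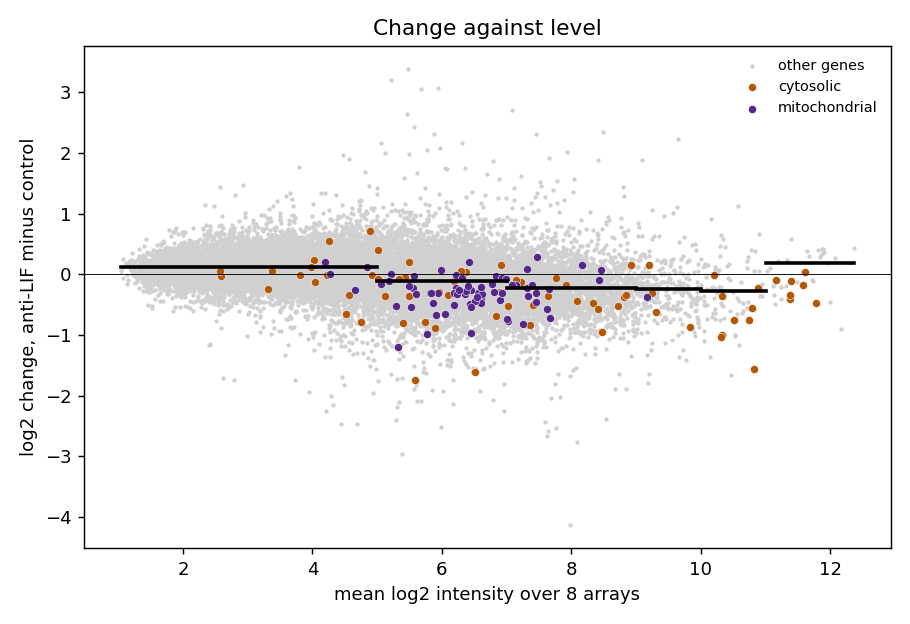
Log2 change, anti-LIF minus control (vertical axis), against the mean log2 intensity over 8 arrays (horizontal axis) for other genes (grey) and cytosolic and mitochondrial symbols (colors); black bars are medians of other genes in bins of level. The grey medians go from 0.11 under a level of 5 to -0.27 at 10 to 11 and are 0.18 at 11 or more, and at 10 to 11 the median of the cytosolic symbols is -0.76.

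Among the cytosolic ribosomal proteins proper, 24 of 54 (44.4%) fell and none rose, with a median log2 change of -0.34. Of all genes 11.0% were lower and 5.79% higher. The large subunit had 15 of 32 lower (median -0.35) and the small subunit 9 of 22 (median -0.34). Their mean level went from 8.18 ± 0.06 (SD, n = 4) to 7.77 ± 0.05 (SD, n = 4). The largest decrease was that of Rps27, a zinc-binding protein of the small subunit. Its log2 values were 5.56, 6.75, 6.84 and 6.70 in controls and 5.01, 4.59, 4.43 and 4.86 in treated mice, which is 3.35-fold lower (log2 change -1.74, SE 0.26, adjusted p = 0.0034 from limma). The groups did not overlap, and control replicate 1 lay nearest to the treated mice. The Rps27 value rests on 1 feature, at a mean log2 level of 5.59. A much brighter feature shared with Rps27rt, given below, was lower by far less and did not pass the test.

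In the large subunit, Rpl34 and Rpl32 stood out. Rpl34 was at 7.29, 7.18, 7.64 and 7.17 in controls and at 6.00, 5.31, 5.55 and 5.97 in treated mice, a log2 change of -1.62 (SE 0.18, adjusted p = 0.0010 from limma). Rpl32 was at 11.54, 11.40, 11.86 and 11.57 in controls and at 10.16, 10.26, 9.97 and 9.77 in treated mice, which is 2.94-fold lower (adjusted p = 6.6e-04 from limma). For both genes the gap between the groups was wider than either group's own range. Rpl8, whose product lies near the peptidyl transferase center where peptide bonds form, was at 10.89, 10.64, 10.88 and 10.87 in controls and at 9.85, 9.95, 9.52 and 9.86 in treated mice (log2 change -1.03, SE 0.13). Rpl14 fell by 0.99 on the log2 scale and had the tightest control values of the 8 largest decreases, 10.76 to 10.89. Rpl29 fell by 0.95 and Rpl9 by 0.89. The Rpl9 value averages 2 features with changes of -1.43 and -0.34, at mean log2 levels of 7.78 and 4.00. Among small subunit genes, Rps3, whose product lines the channel where messages enter, was at 10.15 to 10.47 in controls and 9.15 to 9.57 in treated mice, a log2 change of -0.87 (adjusted p = 0.0044 from limma). All 8 of these genes separated the groups without overlap, which was a condition for naming a decrease. The p of 0.029 in an exact two-sided permutation test, its lowest possible value with 4 arrays a group, therefore adds no support. None of the 8 lost its call in any of 17 alternatives.

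Rpl11 and Rpl5, whose products bind the 5S RNA and, when free, the p53 regulator MDM2, had log2 changes of -0.01 and 0.21, and neither passed the test (adjusted p = 0.97 and 0.45 from limma). Rps6, the ribosomal substrate of the S6 kinases, went from 11.55 ± 0.10 (SD, n = 4) to 11.21 ± 0.08 (SD, n = 4), a log2 change of -0.34 (adjusted p = 0.089 from limma). Rps19, which is mutated in Diamond-Blackfan anemia, fell by 0.57 on the log2 scale (adjusted p = 0.020). Of 5 cytosolic ribosomal proteins whose symbols fall outside the spelling used here, 2 fell: Rplp0, the base of the stalk that recruits elongation factors, by 0.72 (adjusted p = 0.016), and Rpsa, a small subunit protein also known as a laminin receptor, by 0.45 (adjusted p = 0.028). Rpsa lost its call with the brightest of its features alone (log2 change -0.02), with arrays centred and scaled, and with quantile normalization again. Of all genes 11.0% were lower.

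**Figure D4:**
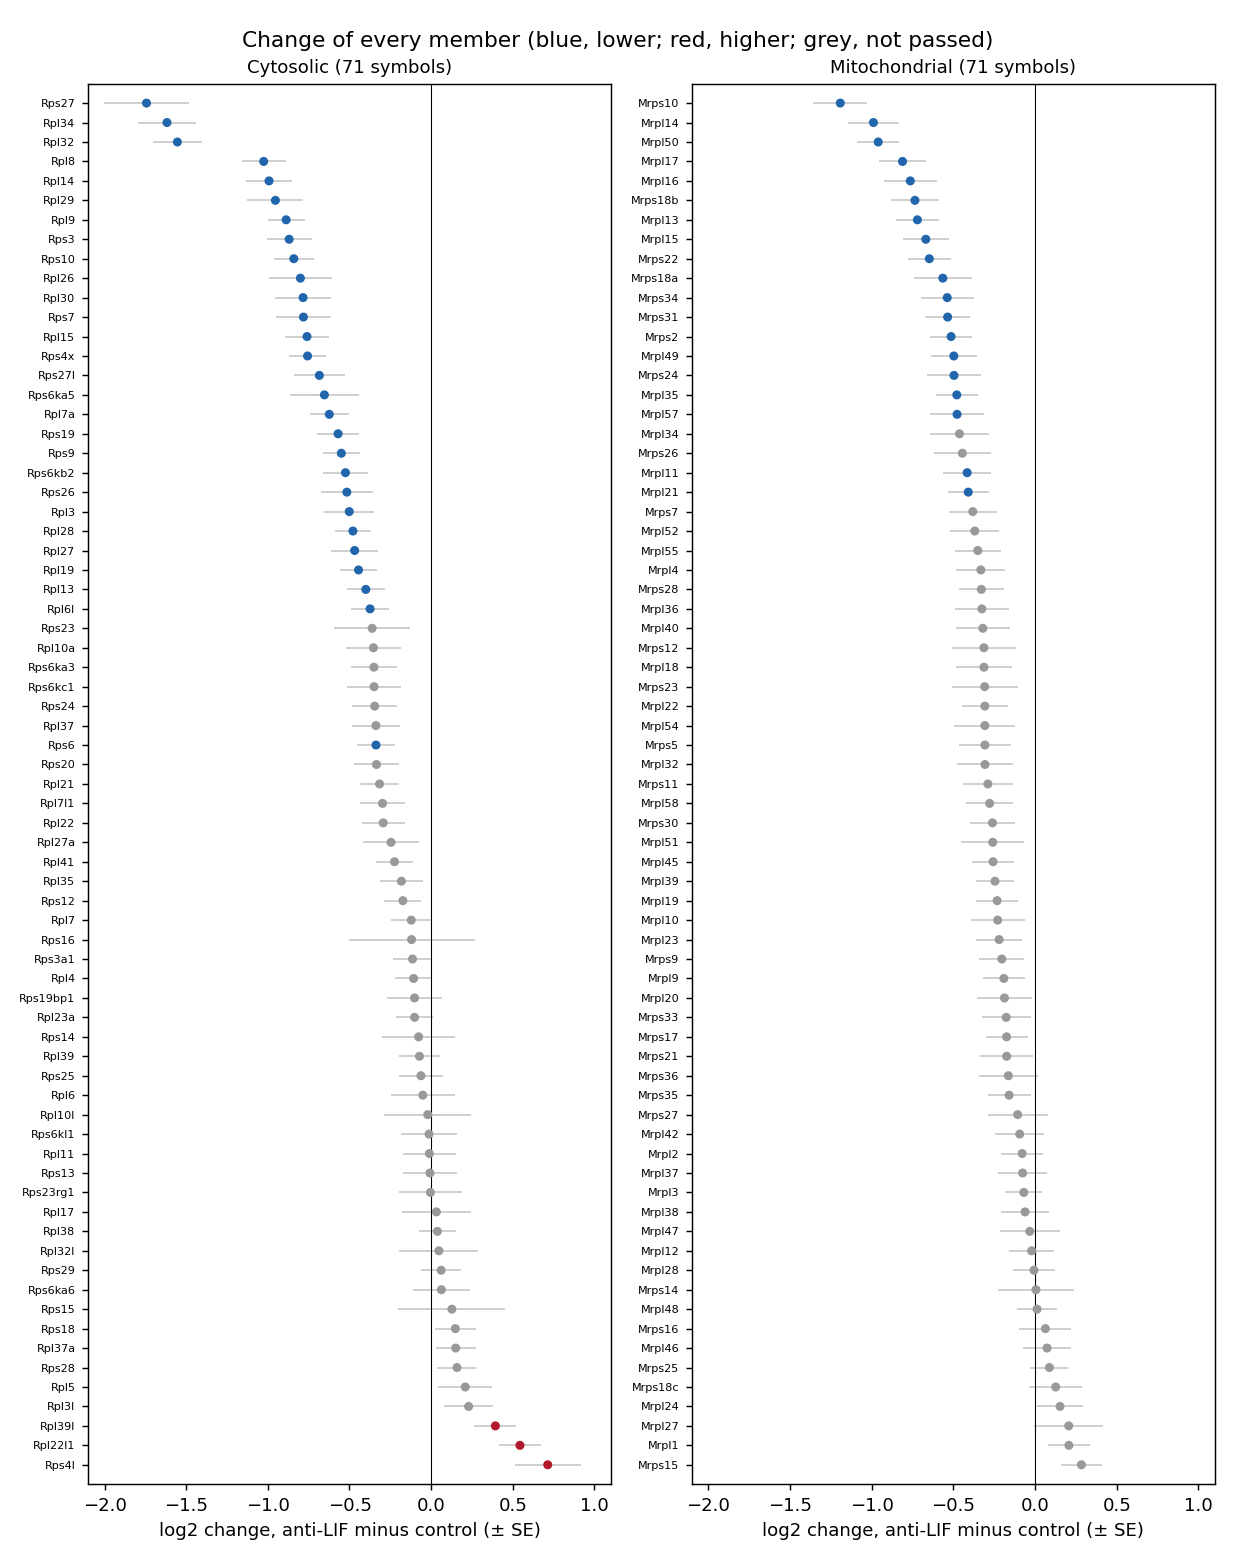
Log2 change, anti-LIF minus control, of each of the 71 cytosolic (left) and 71 mitochondrial (right) symbols, with the SE from limma as a bar; blue marks genes that fell, red genes that rose and grey genes that did not pass. Blue points run from -1.74 to -0.34 on the left and from -1.19 to -0.41 on the right, and the 3 red points are the paralogs Rpl39l, Rpl22l1 and Rps4l.

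The 3 members that rose were all paralogs, and 2 of the 9 paralogs fell, Rps27l and Rpl6l. Of all genes 5.79% were higher and 11.0% lower. Rpl22l1, an RNA-binding counterpart of Rpl22, was at 4.05, 4.10, 3.70 and 4.11 in controls and at 4.58, 4.52, 4.56 and 4.46 in treated mice (log2 change 0.54, SE 0.13, adjusted p = 0.023 from limma). Rpl22 itself was at 6.97 to 7.19 in controls and 6.52 to 6.97 in treated mice, a change of -0.29 that did not pass (adjusted p = 0.18). Rps4l had a log2 change of 0.71 (SE 0.20, adjusted p = 0.046 from limma), and Rps4x, the X-linked gene of the same protein family, fell by 0.76 (adjusted p = 0.0037). The Rps4l values overlapped between groups, 4.10 to 5.00 against 4.88 to 5.53, and the gene did not pass when control replicate 4 or treated replicate 6 or 8 was left out. Rpl39l, a paralog of Rpl39 known for its expression in testis, rose by 0.39 (adjusted p = 0.076), and Rpl39 had a change of -0.07. The Rpl39l call was lost in 9 of 17 alternatives. Rpl22l1 was the single one of the 3 that kept its call without each array in turn. All 3 lay at mean log2 levels of 4.26 to 5.01, near the all-gene median of 4.61, and no background level could be set.

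Paralog and partner were compared as the difference of their values on each array, over 6 pairs. Rps4l minus Rps4x rose by 1.47 and Rpl22l1 minus Rpl22 by 0.84 from control to treated mice, each without overlap (exact two-sided permutation test, p = 0.029, adjusted p = 0.086 over the 6 pairs by Benjamini-Hochberg). In both pairs the paralog was dimmer, at mean log2 levels of 4.90 against 10.51 and 4.26 against 6.90. Median changes of genes that are not members were 0.11 under a level of 5, -0.10 at 5 to 7 and -0.27 at 10 to 11. The part of level in the pair differences was not tested. Rpl3l minus Rpl3 rose by 0.73 and Rpl39l minus Rpl39 by 0.46, with groups that touched (exact permutation p = 0.057, adjusted p = 0.086). Rps27l fell, by 0.68 on the log2 scale, and so did Rps27, and their difference was higher by 1.06 with overlapping groups (exact permutation p = 0.086, adjusted p = 0.10). For Rpl7l1 minus Rpl7 it was -0.18 (exact permutation p = 0.20). With 4 arrays a group and 6 pairs, the separation of 1 or 2 pairs could not give an adjusted p under 0.05.

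Among the 8 symbols that are not ribosomal proteins, 2 fell, against 11.0% of all genes. Rps6kb2, an S6 kinase downstream of mTORC1, was at 7.18 to 7.38 in controls and 6.48 to 6.96 in treated mice (log2 change -0.52, SE 0.14, adjusted p = 0.034 from limma). Rps6ka5, the nuclear kinase MSK1, had a log2 change of -0.65 with overlapping groups (adjusted p = 0.071) and lost its call in 7 of 16 alternatives. The 15 symbols holding -ps, kept apart, had 2 lower, 1 higher and a median log2 change of -0.06, shares close to the 11.0% and 5.79% of all genes.

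In the mitochondrial ribosome, 11 of 43 large subunit genes (median log2 change -0.28) and 8 of 28 small subunit genes (median -0.30) fell, with the subunit read from the symbol. Of the bacterial homologs 13 of 44 fell (median -0.31), and of the mitochondria-specific proteins 6 of 27 (median -0.26). Of all genes 11.0% were lower, and of genes that are not members 17.5% fell at a mean log2 level of 5 to 7 and 31.4% at 7 to 9. Mrps10, a small subunit protein, had the largest decrease. It was at 5.87, 5.91, 6.01 and 5.88 in controls and at 4.76, 4.83, 4.24 and 5.05 in treated mice, which is 2.29-fold lower (log2 change -1.19, SE 0.17, adjusted p = 0.0026 from limma). Every treated mouse lay below all controls, whose values were close together.

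Mrpl14, Mrpl17, Mrpl16, Mrpl13 and Mrpl15 are large subunit proteins with bacterial counterparts, and each fell. Mrpl14 was at 6.08, 6.14, 6.49 and 6.35 in controls and at 5.60, 5.11, 5.03 and 5.37 in treated mice (log2 change -0.99, adjusted p = 0.0044 from limma). The remaining 4 fell by 0.81, 0.76, 0.72 and 0.67 on the log2 scale, with adjusted p-values of 0.0067, 0.014, 0.0072 and 0.013. Mrpl50, a mitochondria-specific protein, was at 6.89, 7.00, 7.10 and 6.75 in controls and at 5.83, 5.99, 6.12 and 5.95 in treated mice, a log2 change of -0.96 (SE 0.13, adjusted p = 0.0023 from limma). None of these groups overlapped, but a decrease was named here only if its groups were separate. The exact two-sided permutation p of 0.029 follows from that choice and adds no support. The mitochondrial ribosome has 3 homologs of the bacterial protein S18. Mrps18b fell by 0.74 (adjusted p = 0.011) and Mrps18a by 0.56 (adjusted p = 0.064), while Mrps18c had a log2 change of 0.13 that did not pass. The Mrps18c value averages 2 features with changes of -0.18 and 0.43. Mrps18a lost its call in 7 of 17 alternatives.

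The stalk of the mitochondrial large subunit, which recruits translation factors, is built on Mrpl10, Mrpl11 and Mrpl12. Mrpl11 fell by 0.42 (adjusted p = 0.095 from limma) and lost its call in 11 of 17 alternatives, and Mrpl10 and Mrpl12 had log2 changes of -0.23 and -0.02 that did not pass. Each of these 2 values averages 2 features of opposite sign, -0.59 and 0.13 for Mrpl10 and 0.27 and -0.31 for Mrpl12. The largest positive change in the mitochondrial class was that of Mrps15, from 7.18 to 7.47 in controls to 7.53 to 7.71 in treated mice. These values did not overlap, as for 6.53% of all genes in that direction, but the gene did not pass the test (log2 change 0.28, adjusted p = 0.17 from limma).

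Several symbols are read by more than 1 array feature, and these did not always move together. Of 30 symbols with several distinct features, 19 had changes of one sign and 11 of both. In 10 of them the brightest feature minus the dimmest did not overlap between the groups. Separation itself gives the lowest p of an exact two-sided permutation test, 0.029 (adjusted p = 0.086 over 30 by Benjamini-Hochberg). These p-values therefore add no support. This comparison was added after the data were seen. How often other genes with several features separate was not counted, and the part of level in these differences was not tested. Rps28 has a feature that went from 11.65 ± 0.04 (SD, n = 4) to 11.25 ± 0.07 and another that went from 6.05 ± 0.04 to 6.76 ± 0.35, changes of -0.40 and 0.71. The 2 features of Rpl4 had changes of -0.43 and 0.22, and those of Mrpl10 had changes of -0.59 and 0.13. For Rps27, the feature annotated to it alone carried the decrease of 1.74, whereas a feature shared by Rps27 and Rps27rt was at 12.27 ± 0.06 in controls and 12.07 ± 0.05 in treated mice (SD, n = 4; log2 change -0.20, adjusted p = 0.30 over all features). The shared feature was also lower on every treated array, by much less on the log2 scale, and it did not pass the test. Ribosomal protein genes have many processed pseudogenes and host small nucleolar RNAs, so which transcripts a feature reads was not tested. Of 8 cytosolic features that also carry a small nucleolar RNA symbol, 2 fell and 3 rose. Over features with several symbols of which any is a member, 20 of 56 cytosolic and 2 of 13 mitochondrial ones fell, against 7.55% of all 41345 features, and 5 cytosolic ones rose, against 4.93%.

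**Figure D5:**
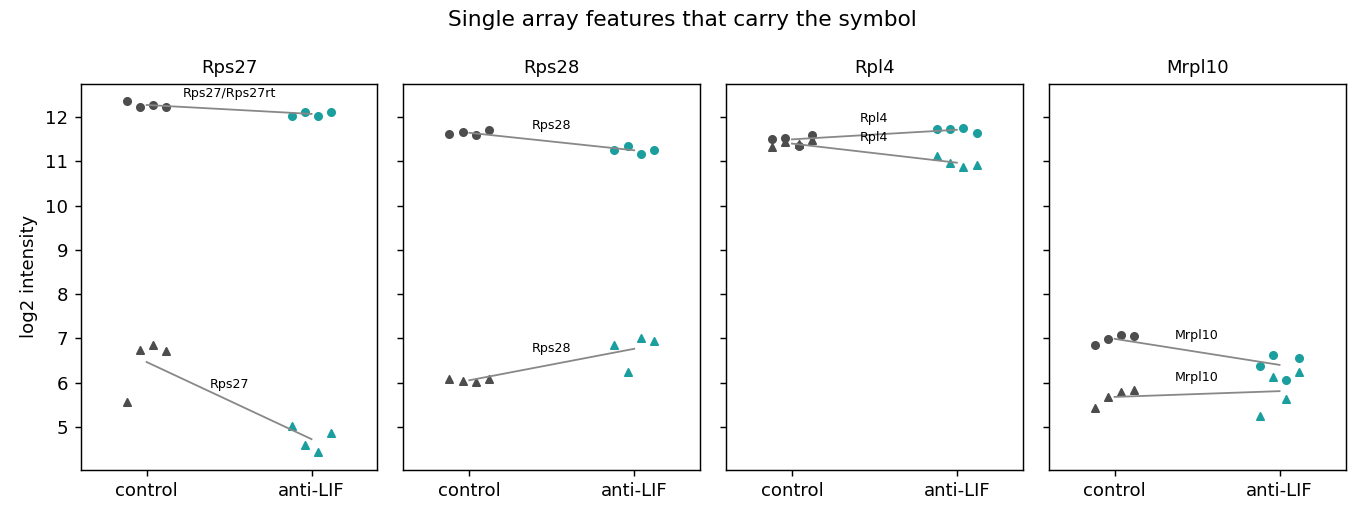
Log2 intensity (vertical axis) of 2 array features each for Rps27, Rps28, Rpl4 and Mrpl10 on each array, in control (grey) and anti-LIF-treated (teal) mice; circles are the brighter feature, triangles the dimmer one, and lines join group means. The dim Rps27 feature goes down by 1.74 and the bright one, shared with Rps27rt, by 0.20, while the dim Rps28 feature goes up by 0.71.

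A motif for ETS-family factors, CCGGAA on either strand, was present in the 300-base promoter window of 59.5% of cytosolic ribosomal proteins and 56.5% of mitochondrial symbols with a window, against 20.6% of array genes. The E-box CACGTG, to which MYC binds, was in 9.52% and 8.07% of them against 9.22%, and TATAAA in 7.14% and 8.07% against 14.3%. The palindromic NRF1 motif was in 9.52% and 17.7% against 7.26%. The shares with CCGGAA were similar for both ribosomes, unlike those with a TOP tract at the start. Of the 8 largest decreases without overlap in each class, 16 genes in all, 11 had a window and 7 of these held CCGGAA. Sites of 2 cytosolic and 2 mitochondrial genes are shown with 10 flanking bases and the motif in capitals, which reads TTCCGG where it lies on the other strand.
Rpl34 (chr3:130730323-130730348, minus strand): ccttttcctcTTCCGGggacggtgct
Rps3 (chr7:99483829-99483854, minus strand): cactttcagaCCGGAActagatgtct
Mrpl50 (chr4:49521140-49521165, minus strand): actacatttcCCGGAAtgcataggtc
Mrpl17 (chr7:105811309-105811334, minus strand): catgctccgcCCGGAAggcgcctcct
Of the cytosolic ribosomal proteins with a TOP tract at the annotated start, 6 of 9 fell (median log2 change -0.48), and of those without one 13 of 33 fell (median -0.34). Of all genes 11.0% were lower, and the difference between these groups of genes was not tested.

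Other genes of ribosome production and translation also fell, where 11.0% of all genes were lower and 5.79% higher. Of 15 genes of RNA polymerase I and its cofactors, 6 (40.0%) fell and none rose (median log2 change -0.24), including the shared polymerase subunit gene Polr1c (-0.61, adjusted p = 0.011 from limma) and Rrn3, the initiation factor TIF-IA (-0.60). Of 37 genes of nucleolar processing and assembly, 16 (43.2%) fell and none rose (median -0.37), led by Ltv1, which matures the small subunit (-0.96), the helicase gene Ddx21 (-0.82) and Utp4 of the small subunit processome (-0.77). Of 28 cytosolic translation factors, 17 (60.7%) fell and none rose (median -0.38). The median levels of these 3 lists were 7.10, 6.47 and 8.87, and of the other genes at 5 to 7 and 7 to 9 on that scale 17.5% and 31.4% fell. The initiation factor genes Eif3l, Eif5 and Eif3h had log2 changes of -0.82, -0.78 and -0.76. The count of 17 was 10 or 11 without control replicate 2, 3 or 4 or treated replicate 7, 7 with arrays centred and scaled, and 6 with quantile normalization again.

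Genes that work with the mitochondrial ribosome were examined in 2 lists. Of 26 mitochondrial translation factors and aminoacyl-tRNA synthetases, 2 fell, Pars2 (-0.52) and Mtif3 (-0.45), and 1 rose, Tars2 (0.38), with a median log2 change of -0.04. These shares, 7.69% and 3.85%, lie below those of all genes, 11.0% and 5.79%, and Mtif3 and Tars2 lost their calls in 6 and 7 of 17 alternatives. Of 23 genes of mitochondrial ribosome assembly and mitochondrial transcription, 7 (30.4%) fell and none rose (median -0.25), including the transcription factor genes Tfb2m (-0.88) and Tfam (-0.65). Tfam had overlapping groups (adjusted p = 0.077 from limma) and lost its call in 7 of 17 alternatives. That count was 3 when control replicate 1, 2 or 3 or treated replicate 5 was left out, and 4 when treated replicate 7 or 8 was. Of 3 mitochondrial ribosomal proteins with other symbols, Dap3, Ptcd3 and Gadd45gip1, none passed the test. Of 16 regulators of ribosome production through mTORC1 and MYC, 6 (37.5%) fell and none rose. They include Eif4ebp1, a translation repressor that mTORC1 inactivates, which went from 7.24 ± 0.40 to 5.99 ± 0.11 (SD, n = 4; log2 change -1.25, adjusted p = 0.0034 from limma), and Rragc, a GTPase that brings mTORC1 to the lysosome (-1.04). Mtor, Larp1 and Myc had log2 changes of -0.35, 0.02 and -0.55, and none of them passed the test (adjusted p = 0.16, 0.92 and 0.30).

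Cell type markers were read in the same arrays, where 11.0% of all genes were lower and 5.79% higher. In the neutrophil, T and NK cell and B cell lists a single gene passed the test. Of 9 macrophage genes, 5 fell and none rose, among them Cd14, Cd68 and Mertk, and the mean log2 level of the list was 8.57 to 9.38 in controls and 8.09 to 8.30 in treated mice. Itgam, which encodes CD11b, had a change of -0.17 that did not pass (adjusted p = 0.59 from limma). Of 10 neutrophil genes 1 fell, S100a8, a share close to that of all genes. The list mean was 4.96 to 5.34 in controls and 4.88 to 5.16 in treated mice. Of 9 T and NK cell genes, Cd8a rose, and of 6 B cell genes, Ighm rose by 2.05, with list means of 3.59 to 3.90 and 3.80 to 4.17 in controls against 3.79 to 4.32 and 4.24 to 4.56 in treated mice. Of 10 tumor and mesothelial genes, Muc16 rose by 1.88 and Krt18 and Krt19 fell, with list means of 7.92 to 8.39 in controls and 8.16 to 8.41 in treated mice. The median log2 level of this list was 8.64, against 8.47 for the macrophage list, so the captured cells cannot be taken as myeloid alone. Of 7 listed erythroid genes 2 were measured, Slc4a1 and Klf1, and both rose. Their mean log2 levels, 3.93 and 4.39, lay below the all-gene median of 4.61. Of other genes at a level under 5, 5.56% rose and 1.92% fell. Of 14 cell cycle genes 4 rose, among them Top2a, Mki67 and Mcm5, and 1, Pcna, fell. Krt19 lost its call in 9 of 17 alternatives, Mcm5 in 6 of 17 and the erythroid gene Klf1 in 5 of 16. The part of these shifts in the ribosomal changes was not tested.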

How the data were processed

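CD11b+ cells from the ascites of 4 control and 4 anti-LIF-treated mice were each measured on a Mouse Gene 2.1 ST array (Affymetrix). The deposited values are log2 intensities that the authors obtained by RMA normalization (Progenika). R 3.1.2 is named in the submitters' processing notes, and the array library files used for RMA are not given in these sources. Of 41345 features, 23521 carry 1 symbol in the platform annotation, 1820 several and 16004 none. Features with 1 symbol were averaged to 22180 genes, of which 1082 have several features, without a filter on low values. The 2 groups were tested by limma 3.58.1 (functions lmFit, eBayes, checked on simulated data) in R 4.3.3 with statmod 1.5.0, with Benjamini-Hochberg adjustment over all genes and the study's threshold of 0.1. The study's methods name paired samples without naming the pairs, so none were used. Precision is limited by the number of arrays, with a median standard error of 0.156. Whether the mice differed in cage or hybridization day is not given, so p-values measure the spread between these mice.

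Named genes were the 8 largest decreases in each class that passed the test without overlap, and increases without overlap (up to 4). Also named were listed paralogs with their partners, called symbols that are not ribosomal proteins, and S18 and stalk genes. Each list gave up to 3 called genes. Rps6, Rps19, Rpl5, Rpl11, Mrps15, Rpl6l, Dap3, Ptcd3, Gadd45gip1, Mtor, Larp1, Myc, Itgam and Pcna, and features of Rps28 and Rpl4, were added after their values were seen, as were the bins of level and the feature pairs. The members and lists were chosen with earlier results of these data known. All 142 members matched RefSeq by symbol, and promoter windows hold 250 bases before and 50 after each start. Python 3.11.15 with matplotlib 3.10.9 drew the figures. Scanner files were not used here.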

Additional observations from a re-analysis of the deposited data

Results flagged for a closer look

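In 6 of 80 groups of 4 arrays examined, a single array lay far from the other 3 by Dixon's ratio, and chance flags about 1 group in 20. Rps27 was at 5.56 in control replicate 1, against 6.70 to 6.84 in the other controls. Rpl8 was at 10.64 in control replicate 2, against 10.87 to 10.89. Control replicate 3 stood apart for Rpl29, at 9.23 against 8.83 to 8.89, and for Rpl22l1, at 3.70 against 4.05 to 4.11. In treated mice, Rpl3 was at 7.38 in replicate 8, against 7.08 to 7.09, and Mrpl12 was at 7.14 in replicate 6, against 6.70 to 6.76.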

How the results depend on the processing

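Among the genes named by rule, without those added later, no change that passed the test turned its direction in any alternative. Values near 0 did: the class difference was 0.01 with arrays centred and scaled or without control replicate 4, and the all-gene median was -0.05 with arrays centred and scaled, -0.04 with arrays centred and -0.12 among genes above the median level. With the brightest feature alone, Mrpl12 was at 0.27 and Mrps18c at -0.18. Rpl7 was at 0.09 with quantile normalization again, and Rpl10l, at -0.02 as reported, was at 0.18 without treated replicate 6. Quantile normalization again gave 1454 lower genes in all, with 25.4% of cytosolic symbols lower and 7.04% higher (median log2 change -0.14), and 15.5% of mitochondrial symbols lower and 1.41% higher (median -0.14). The cytosolic median was -0.15 with arrays centred and scaled and -0.38 with arrays centred on their medians. Mitochondrial symbols were higher in 1.41% with arrays centred and scaled and in 1.45% among genes above the median level. Among those brighter genes 54.2% of cytosolic and 36.2% of mitochondrial symbols fell, against 28.0% of all. With an adjusted p under 0.05, 674 genes were higher. Over features with several symbols, 8.93% of cytosolic ones were higher and 15.4% of mitochondrial ones lower. The share of calls that were higher was 34.4% as reported, 21.6% with arrays centred and 47.7% with quantile normalization again. The cause of these shifts was not tested.

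Without each array in turn, 802 to 1357 genes were higher and 1644 to 2445 lower. The number of higher genes was 840 without treated replicate 7, 844 without control replicate 2 and 802 without control replicate 3. Cytosolic symbols were lower in 31.0% to 38.0% and higher in 1.41% to 4.23%, the lowest without control replicate 4 or treated replicate 6. Mitochondrial symbols were lower in 16.9% to 29.6%, and in none of these fits higher. The medians ran from -0.32 to -0.26 and from -0.34 to -0.20, and the difference between the classes from -0.09 to 0.01. Of the members that fell, 21 of 28 cytosolic and 12 of 19 mitochondrial ones stayed called without each array. Macrophage markers were lower in 3 genes without control replicate 2 or 3 or treated replicate 5.

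The mice are numbered 1 to 8 across the groups, so the labels give no pairs. The replicate block was run for each of the 24 possible pairings of a control with a treated mouse. It gave 31.0% to 38.0% of cytosolic and 19.7% to 28.2% of mitochondrial symbols lower, 1.41% of cytosolic symbols higher at the lowest, 1887 to 2238 genes lower and 926 to 1213 higher.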
